A study of Mus musculus with 18 samples.

Results

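The 7 genes described here, Pou5f1, Sox2, Nanog, Sall4, Utf1, Gdf3 and Tdh, are a core set of pluripotency genes, followed from mouse embryonic stem (ES) cells into germ cells. They were chosen by name: every probe of the array whose gene name, or an older synonym of it, is one of the 7 was taken. That gave 8 of 41174 probes that are not controls, 1 for each gene and 2 for Sall4. All 8 probes passed the filter on dim signals, which kept 28128 probes and 18889 genes. Each of 9 groups holds 2 samples, whose RNA was read on Agilent arrays with a single dye. A level here is the log2 signal of a probe minus the log2 of its array's 75th percentile, so levels of different genes, which come from different probes, are not compared.

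The cells of all groups are labelled male and of a mixed C57BL/6 and 129SV strain. The first 4 groups were undifferentiated ES cells, grown with LIF on feeder fibroblasts and sorted by green fluorescent protein (GFP). A line with a Stella-GFP reporter (a bacterial artificial chromosome transgene; Stella is the product of Dppa3) gave a GFP-positive and a GFP-negative group, and so did a line with a Dazl-GFP reporter. For 3 groups, feeders were depleted, the cells were kept in differentiation medium, and GFP-positive cells were then sorted: Stella-GFP at day 7, Dazl-GFP at day 12 and Dazl-GFP at day 16. The labels name these as primordial germ cells made in vitro. The other two groups were Dazl-GFP-positive cells of transgenic mice, sorted from gonads at E13.5 (E counts embryonic days) and from testes at postnatal days 7 to 11, called juvenile testis below. Each reporter is 1 line, so line and reporter cannot be told apart, and the day 7 cells differ from the day 12 and 16 cells in line as well as time.

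Pou5f1 (also called Oct4) and Sox2 are DNA-binding proteins that bind side by side at a composite element and, with the homeobox factor Nanog and the zinc-finger factor Sall4, hold ES cells in the undifferentiated state. Utf1 is a chromatin-associated protein, Gdf3 a secreted ligand of the TGF-beta family, and Tdh the mitochondrial threonine dehydrogenase that mouse ES cells use to make glycine and acetyl-CoA. Primordial germ cells express much of this set and shut most of it down as they mature, while Sall4 is known to persist in undifferentiated spermatogonia.

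The promoters of Nanog and Sox2 are shown because both hold the octamer core defined below, part of the letters that Pou5f1 is known to bind. That of Nanog also holds the Sox letters, and that of Sox2 does not. RefSeq promoter windows (build GRCm38.p6) were matched for 4 of the 7 genes, Sox2, Nanog, Utf1 and Pou5f1. The 250 bases before each start were searched on both strands for the octamer ATGCAAAT, its core ATGCAAA, the Sox letters CATTGT, and a composite of both, CATTGT followed after any 1 base by ATGCAAA. A composite is therefore also counted as a core and as Sox letters, and an octamer as a core. Capitals mark matches, and the second window is on the plus strand like the first.
Nanog, chr6:122707239-122707488, plus strand: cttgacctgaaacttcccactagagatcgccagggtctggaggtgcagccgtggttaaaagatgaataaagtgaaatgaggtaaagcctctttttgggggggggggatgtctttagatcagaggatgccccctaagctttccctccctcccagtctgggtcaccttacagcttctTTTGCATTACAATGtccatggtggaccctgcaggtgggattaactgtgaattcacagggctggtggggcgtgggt
Sox2, chr3:34649745-34649994, plus strand: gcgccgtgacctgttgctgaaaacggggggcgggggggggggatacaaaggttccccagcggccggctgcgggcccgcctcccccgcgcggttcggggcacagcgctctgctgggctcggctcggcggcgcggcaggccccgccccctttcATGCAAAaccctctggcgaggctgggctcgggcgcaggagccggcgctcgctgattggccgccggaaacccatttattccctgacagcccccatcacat

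The composite of Nanog matches on the minus strand, and its leftmost base in the window as printed is at position -75, where -1 is the base before the start. Among 32851 windows of the same length, 2 (0.00609%) held the composite, and both were windows of Nanog, which has a second, overlapping one. The octamer core of Sox2 lies at position -99, and 4.125% of the windows held that core. The full octamer occurred in 1.60% of the windows and in none of these 4 genes' windows, and the Sox letters occurred in 10.7%. The window at the first start of Pou5f1 and that of Utf1 held none of these letters, and a second Pou5f1 window held the Sox letters once. A match is a description of letters, and no binding was measured.

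The arrays' 75th percentiles ran from 103 to 474, between 50.6% and 68.9% of an array's spots stood well above background, and no spot was saturated. The labels do not say that replicates are separate cultures or animals, so p-values measure only the spread between these samples, which may be technical. Reporter genes followed the sorts: Dppa3 was higher by 2.63 ± 0.35 (log2 difference ± SE) in Stella-GFP-positive than in GFP-negative ES cells, and Dazl by 4.12 ± 0.16 in Dazl-GFP-positive ones. All 10 naive ES cell markers were well above background in every group, E13.5 and juvenile testis included, but not at equal levels. The log2 of their summed levels was 8.06 to 8.08 in Dazl GFP-positive ES cells. It was 5.11 to 6.15 at E13.5 and 4.33 to 4.49 in juvenile testis. Ddx4, the germ cell RNA helicase, was at 4.98 to 5.59 at E13.5 and 4.47 to 4.89 in juvenile testis, against at most 2.41 on the arrays of cultured cells. The log2 sum of 10 germ cell markers was also higher at E13.5 and in juvenile testis than in any cultured group. Not every germ cell gene had that order. Kit was lower on each E13.5 and juvenile array than on either day 12 array. Dppa3 on E13.5 replicate 1 lay between the day 7 arrays, and in juvenile testis it lay below every ES array. Dazl was higher at E13.5 than on any cultured array, but juvenile testis overlapped day 12. In these bulk samples, fewer cells of a type and less RNA per cell cannot be told apart.

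1 library went against its label. On E13.5 replicate 1, labelled male, Ddx3y and Eif2s3y, both Y-linked, read -7.45 and -7.29 and were not well above background, whereas both were well above it on each of the other 17 arrays. Stra8 and Rec8, genes of meiotic entry, were at 8.87 and 7.45 on that array and at 1.55 and 3.14 on E13.5 replicate 2. Nanos2, a gene of male fetal germ cells, was not well above background on replicate 1 (-5.63) and was at 0.39 on replicate 2. All 7 core genes were lower on replicate 1, by a median of 1.11 against a median absolute gap of 0.52 over all genes. Comparisons of the 7 core genes that rest on E13.5 are therefore given with and without replicate 1. The latter rest on 1 E13.5 array and on error from other groups, so no p-values are given for E13.5 without replicate 1. Gene lists, cell type markers, the dimmer Sall4 probe and correlations over groups are given only with it. The spread of replicate 1 also enters the error shared by every comparison.

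**Figure D1:**
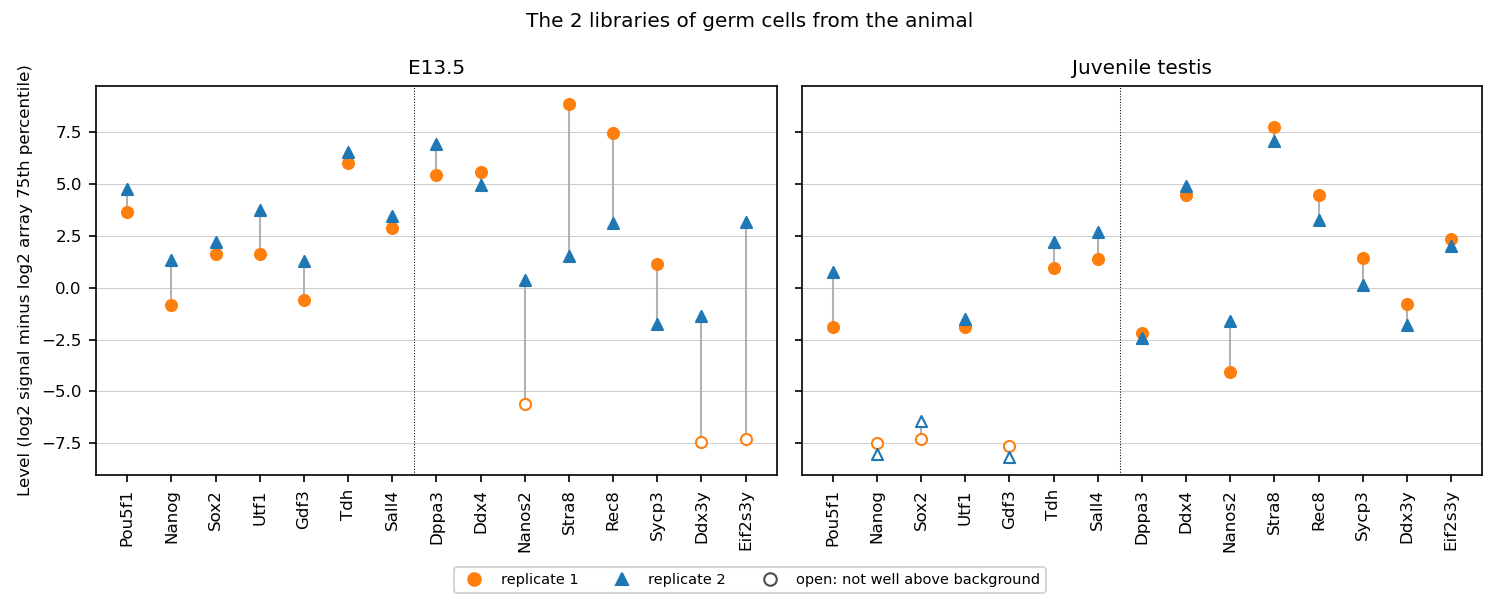
Levels (log2 signal minus log2 array 75th percentile) of the 7 core genes, left of the dotted line, and of 8 germ cell, meiotic and Y-linked genes on the 2 arrays of E13.5 and of juvenile testis; circles are replicate 1, triangles replicate 2, open symbols not well above background. At E13.5 every core gene is lower on replicate 1, Stra8 and Rec8 are higher there, and the Y-linked Ddx3y and Eif2s3y are near -7.

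Pou5f1, the POU-domain factor, was read by 1 probe that was well above background on all 18 arrays. In Stella-GFP ES cells it was at 5.84 and 6.11 in the GFP-negative group and at 5.79 and 5.72 in the GFP-positive group. In Dazl-GFP ES cells it was at 5.54 and 5.47 in GFP-negative and at 5.69 and 5.77 in GFP-positive cells. ES cells thus held the highest Pou5f1 levels in either line, within a range of group means of 0.47. At day 7 Pou5f1 was at 5.14 and 5.15, at day 12 at 4.68 and 4.34, and at day 16 at 4.57 and 4.55. It was at 3.67 and 4.78 at E13.5 and at -1.91 and 0.75 in juvenile testis. Cells in differentiation medium lay below all ES cells and above the juvenile testis, whose arrays were the lowest. In the order of group means, Stella GFP-positive overlapped Dazl GFP-positive ES cells, and day 16, day 12 and E13.5 overlapped each other as neighbours; the other neighbouring groups did not overlap.

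Sox2, the HMG-box partner of Pou5f1, had its highest levels in Stella-GFP-positive ES cells, 4.77 and 4.89. The Stella GFP-negative arrays read 4.46 and 4.39, the Dazl GFP-positive ones 4.32 and 4.41, and the Dazl GFP-negative ones 3.51 and 3.64. Sox2 was thus lowest among ES cells in the Dazl-GFP-negative sort, below every array of the differentiated cells. It was at 3.97 and 4.00 at day 7, at 3.85 and 3.78 at day 12, and at 4.00 and 3.96 at day 16. E13.5 arrays were at 1.61 and 2.19, below all cultured cells, and juvenile testis was not well above background (-7.29 and -6.43). Only 2 neighbouring pairs in the order overlapped, Stella GFP-negative with Dazl GFP-positive ES cells and day 7 with day 16.

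Nanog, the homeobox factor, was the member with a different order, since it was highest in the differentiated cells. The day 7 arrays read 3.47 and 3.45, the day 12 arrays 3.59 and 3.71, and the day 16 arrays 3.53 and 3.64. ES cells were lower: 2.65 and 2.43 in Stella GFP-negative, 2.98 and 2.86 in Stella GFP-positive, 2.01 and 2.22 in Dazl GFP-negative, and 2.54 and 2.67 in Dazl GFP-positive cells. No ES array reached any array of the differentiated cells. E13.5 was at -0.82 and 1.35, and juvenile testis, at -7.48 and -8.00, was not well above background. Neighbours overlapped between day 12 and day 16 and between Dazl GFP-positive and Stella GFP-negative ES cells. The authors' deposited table titles this probe as similar to Nanog and gives a pseudogene-like symbol, so signal from a near-identical copy cannot be told apart from Nanog itself.

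Sall4, the zinc-finger factor, was read by 2 probes that disagree in part. On the brighter one, used in the fits, ES arrays lay between 3.51 (Stella GFP-negative) and 3.90 (Stella GFP-positive), and the 4 ES groups overlapped as neighbours. Day 7 read 3.20 and 3.17, day 12 2.75 and 2.77, and day 16 2.59 and 2.61, all below every ES array. E13.5 was at 2.89 and 3.46, overlapping day 7, and juvenile testis at 1.39 and 2.70, overlapping day 16. Sall4 thus had the smallest range of group means among the members outside the juvenile testis, 1.27. On the dimmer probe the whole range of group means was from -0.35 at day 12 to 0.54 in Dazl GFP-negative ES cells, E13.5 (0.51 and 0.38) lay second, and juvenile testis (-0.41 and 0.11) lay within the cultured groups.

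Utf1, the chromatin-associated protein, was high in Stella-GFP cells before and after differentiation. It was at 3.21 and 3.31 in GFP-negative ES cells, at 3.36 and 3.37 in GFP-positive ones, and at 3.41 and 3.23 at day 7, where it overlapped both of its neighbours. In the Dazl-GFP line it was at 2.38 and 2.34 in GFP-negative and at 3.05 and 2.90 in GFP-positive ES cells, then at 0.69 and 0.85 at day 12 and at 1.99 and 2.03 at day 16. Day 12 was thus the lowest of the cultured groups and day 16 the next lowest, without overlap. E13.5 spanned 1.63 to 3.75, from below day 16 to above every ES array, and juvenile testis read -1.91 and -1.51.

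Gdf3, the ligand, was highest in Stella-GFP ES cells, at 2.50 and 2.58 in GFP-negative and at 2.85 and 2.83 in GFP-positive ones. Dazl-GFP ES cells were lower, at 1 and 1.14 in GFP-negative and at 1.82 and 2.00 in GFP-positive cells. The differentiated arrays read 1.84 and 2.29 at day 7, 0.58 and 0.60 at day 12, and 1.12 and 1.08 at day 16. Day 7 overlapped Dazl GFP-positive ES cells, day 16 overlapped Dazl GFP-negative ES cells, and day 12 overlapped E13.5, which was at -0.60 and 1.30. In juvenile testis Gdf3 was not well above background (-7.64 and -8.16).

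Tdh, the threonine dehydrogenase, was at 8.51 and 8.09 in Stella GFP-negative and at 8.82 and 8.61 in Stella GFP-positive ES cells. It was at 7.35 and 7.25 in Dazl GFP-negative and at 8.44 and 8.27 in Dazl GFP-positive ES cells. Day 7 kept levels of 7.96 and 7.84, between the Dazl ES groups. Day 12 read 5.86 and 5.94 and day 16 5.40 and 5.43, the lowest of the cultured groups. E13.5 was at 6.00 and 6.55, above both Dazl-GFP differentiated groups, and juvenile testis at 0.97 and 2.21. Among neighbours, only Dazl GFP-positive and Stella GFP-negative ES cells overlapped. Tdh had the widest range of group means over the cultured groups, 3.30. With E13.5 included, the widest range was that of Nanog, 3.39.

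**Figure D2:**
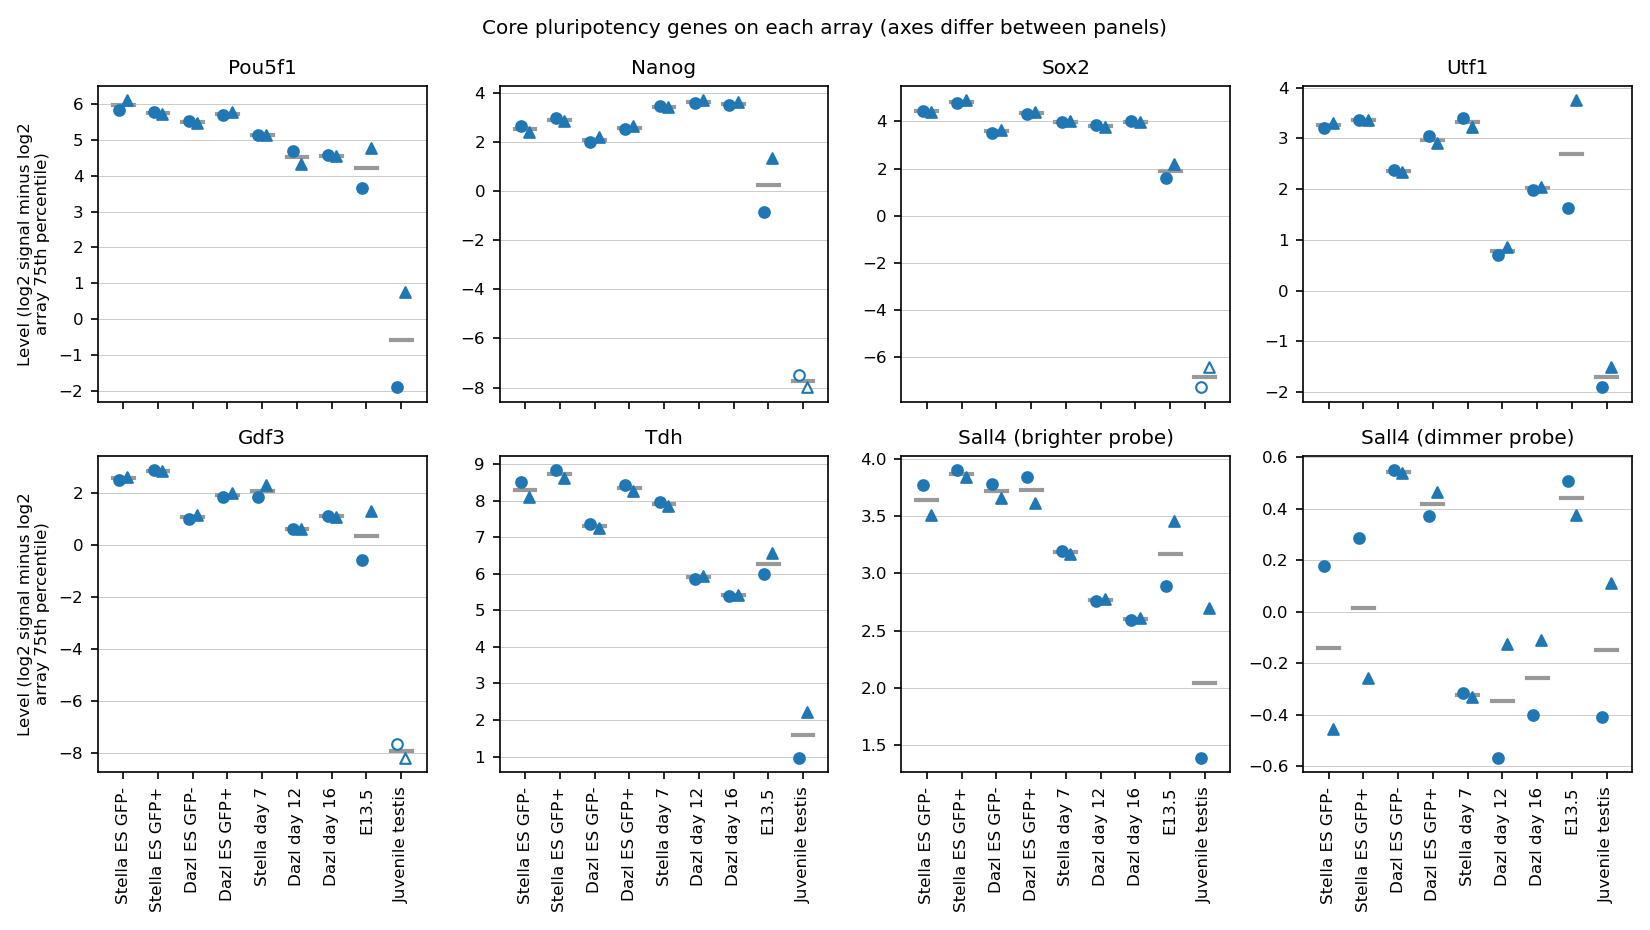
Level (log2 signal minus log2 array 75th percentile) of each core gene in the 9 groups; circles are replicate 1, triangles replicate 2, grey bars group means, open symbols not well above background, and each panel has its own axis. Nanog is highest at day 7 to 16, every other panel has its highest mean in an ES group, and Nanog, Sox2 and Gdf3 are dim in juvenile testis.

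Neither reporter sort of ES cells changed a core gene by the test used. Differences are log2, from a limma fit of all 18 arrays, and a call means a p under 0.05 after Benjamini-Hochberg adjustment over 18889 genes. In the Stella-GFP sort 0 of 7 core genes were called (0.439% of all genes were), none had an unadjusted p under 0.05, and 6 of 7 were higher in GFP-positive cells. Tdh differed by 0.42 ± 0.33 and Pou5f1, the exception, by -0.22 ± 0.62. Within the 2 slides that held both groups Pou5f1 differed by -0.05 and -0.38, and Tdh by 0.31 and 0.52.

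In the Dazl-GFP sort 0 of 7 were called as well (2.9% of all genes were), and 7 of 7 were higher in GFP-positive cells. Sall4 was so by only 0.01 ± 0.34, by 0.06 and -0.05 within the slides, and it was lower under quantile normalization and normexp. Tdh (1.05 ± 0.33, adjusted p = 0.145) and Sox2 (0.79 ± 0.26, adjusted p = 0.159) had an unadjusted p under 0.05. Within the shared slides Tdh differed by 1.08 and 1.02 and Sox2 by 0.81 and 0.77. Fitted on the 4 arrays of this sort alone, Tdh, Sox2, Gdf3 and Utf1 were called (14% of all genes were), and without E13.5 replicate 1 Gdf3 and Utf1 were (7.3% of all genes). The difference between the sorts, tested itself, was called for 0 of 7 (0.0371% of all genes), with none at an unadjusted p under 0.05. For Pou5f1, lower on both slides of the Stella sort and higher by 0.14 and 0.30 on those of the Dazl sort, it was -0.44 ± 0.88 (adjusted p = 0.9999).

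Genes that Pou5f1 and Sox2 are known to regulate moved in the Dazl-GFP sort. Of 19 targets tested, 6 were higher and none lower in GFP-positive cells, with a list median of 0.97 against 0.05 for all genes. Of all genes, 2.9% were called in this sort. The zinc-finger factor Klf2 rose by 1.27 ± 0.21 and Spp1, the secreted osteopontin, by 1.80 ± 0.33. Klf2 and some other targets are also naive ES cell markers, of which 5 of 10 were higher and none lower. In the Stella-GFP sort, where 0.439% of all genes were called, none of the 19 was called and the median was 0.29. There, 3 of 17 POU, SOX and Sall relatives were lower, Sall2 among them (-2.71 ± 0.36, adjusted p = 0.0112), together with the POU factors Pou3f3 and Pou3f1, the latter a marker of primed epiblast. Markers of other cells moved with the Dazl-GFP sort: 6 of 13 fibroblast markers were higher, the log2 of their summed levels being 5.42 to 5.52 in GFP-positive and 3.32 to 3.39 in GFP-negative cells. Of 10 mesoderm markers 5 were lower, with sums of 2.24 to 2.29 and 5.56 to 5.59. Their part in the values of the core genes was not tested.

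Differentiation of the Stella-GFP line to day 7 lowered Sox2 and, by the test used, none of the other six. Sox2 fell by 0.84 ± 0.26 on the log2 scale against GFP-positive ES cells (adjusted p = 0.0391), 1 of 7 core genes called where 20.6% of all genes were. Tdh (-0.82 ± 0.33, adjusted p = 0.105), Gdf3 (-0.77 ± 0.44), Sall4 (-0.69 ± 0.34) and Pou5f1 (-0.61 ± 0.62) were not called. Nanog differed by 0.54 ± 0.49 and Utf1 by -0.04 ± 0.48, and the median over all genes was -0.15. The Sox2 call was lost under quantile normalization (-0.45, adjusted p = 0.118) and normexp (-0.37, adjusted p = 0.305) and on leaving out any one of the 4 arrays compared (adjusted p = 0.0912 to 0.166), whereas without E13.5 replicate 1 Gdf3 and Nanog were called too, 3 of 7 against 30.2% of all genes. Of 13 fibroblast markers 8 were lower at day 7 and none higher, with log2 sums of 2.21 to 2.24 against 2.81 to 4.38, and their part was not tested. Each day 7 array had a slide to itself, so slide and group cannot be told apart.

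In the Dazl-GFP line, day 12 cells had less Tdh, Utf1 and Gdf3 than GFP-positive ES cells. The call of 3 of 7 stood against 27.3% of all genes. Tdh fell by 2.45 ± 0.33 on the log2 scale (adjusted p = 0.000364), Utf1 by 2.21 ± 0.48 (adjusted p = 0.00591) and Gdf3 by 1.32 ± 0.44 (adjusted p = 0.0471). On the slide that held both groups, the differences were -2.32, -2.05 and -1.40. Pou5f1 (-1.22 ± 0.62, adjusted p = 0.174), Sox2 (-0.55 ± 0.26, adjusted p = 0.137), Sall4 (-0.97 ± 0.34, adjusted p = 0.0530) and Nanog (1.05 ± 0.49, adjusted p = 0.140) were not called, although in all 7 the arrays of the groups did not overlap.

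Nanog was the only core gene with a higher day 12 than ES mean, and its call turned on the error used. Nanog and Sall4 were called as well when E13.5 replicate 1 was left out, 5 of 7 against 36.7% of all genes, Nanog with an adjusted p of 0.00143. Fitted on the 4 arrays compared, 7 of 7 were called, and so were 48.9% of all genes. Gdf3 lost its call without any one of those arrays (adjusted p = 0.127 to 0.178) with slide as a block (adjusted p = 0.129), under normexp (-0.79, adjusted p = 0.221) and with no filter on dim probes (adjusted p = 0.0504). Between ES cells and day 12 the fibroblast sum fell from 5.42 to 5.52 down to 1.67 to 1.72, with Prrx1, Lum, Dcn and Twist2 not well above background at day 12. Whether that shift bears on the core genes was not tested.

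The day 7 and day 12 differences come from separate arrays, and the difference between them was tested after the data were seen. No core gene was called (0 of 7, 3.89% of all genes), with 2 at an unadjusted p under 0.05. Utf1, close to its ES level at day 7 and low at day 12, differed by 2.16 ± 0.67 (adjusted p = 0.105), and Tdh by 1.63 ± 0.47 (adjusted p = 0.0822). Both were called without E13.5 replicate 1 (9.55% of all genes) and on the 8 arrays compared alone (11.8%). Line, reporter and day cannot be told apart in it.

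From day 12 to day 16, 0 of 7 core genes were called, as were 1% of all genes, and Utf1 was the 1 gene with an unadjusted p under 0.05. Utf1 differed by 1.24 ± 0.48 (adjusted p = 0.482), by 1.30 and 1.18 on the slides that held both times, and without E13.5 replicate 1 it was called (adjusted p = 0.00271; 1.98% of all genes). Fitted on these 4 arrays, Utf1 and Gdf3 (0.50 ± 0.44) were called higher and Tdh (-0.49 ± 0.33) lower, with 19.6% of all genes. Endoderm markers moved over the same days, 2 of 9 being higher at day 16 and the log2 sum being 0.80 to 0.84 at day 12 and 3.11 to 3.14 at day 16. Their part was not tested.

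Of the enzymes that neighbour Tdh in threonine, glycine and one-carbon metabolism, those called were lower in both cultures. Their number at day 12 was near the share of all genes called. At day 7, when 20.6% of all genes were called, 9 of 16 were lower and none higher, with a median of -1.08 against -0.15 for all genes. Mthfd2, the mitochondrial folate enzyme, fell by 1.75 ± 0.20 and Psat1, of serine synthesis, by 1.75 ± 0.24 on the log2 scale. At day 12, when 27.3% of all genes were called, 5 of 16 were lower and none higher, with a median of -0.61 against -0.11, and Gcsh, of the glycine cleavage system, fell by 1.48 ± 0.22. Of the 19 Pou5f1 and Sox2 targets, 4 were lower and 1 higher at day 7, and 6 were lower and 2 higher at day 12. Lin28a, an RNA-binding protein, fell by 3.77 ± 0.37 on the log2 scale at day 12, while Tbx3, a T-box factor, rose by 1.52 ± 0.16.

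Chromatin partners and relatives of the core factors went down more often at day 12 than up. The counts of these lists are to be read against the 27.3% of all genes called at day 12 and the 20.6% called at day 7. Of 24 chromatin and transcription partners, 11 were lower and 1 higher at day 12 (median -0.67), with 4 lower and none higher at day 7. Zscan10, a zinc-finger partner, fell by 2.15 ± 0.43. Of the 17 relatives, 6 were lower and none higher at day 12, a count near the share of all genes called, and Pou3f1 fell by 3.90 ± 0.34. In Nodal and Gdf signalling, the pathway of Gdf3, 1 of 17 was lower at day 12, the Nodal inhibitor Lefty2 (-5.15 ± 1.63, adjusted p = 0.0367), and 2 were lower at day 7, Smad2 and Smad7. Some genes stand on more than 1 of these lists, such as Lefty2 among the targets.

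Germ cells at E13.5 had less Sox2, Nanog, Tdh and Gdf3 than Dazl-GFP-positive ES cells, and 4 of 7 called compares with 44.8% of all genes. Sox2 fell by 2.46 ± 0.26 (adjusted p = 2.00e-05), Nanog by 2.34 ± 0.49 (adjusted p = 0.00249), Tdh by 2.08 ± 0.33 (adjusted p = 0.000413) and Gdf3 by 1.56 ± 0.44 (adjusted p = 0.0139) on the log2 scale. Pou5f1 (-1.51 ± 0.62, adjusted p = 0.0695), Sall4 (-0.56 ± 0.34) and Utf1 (-0.29 ± 0.48) were not called. Leaving out E13.5 replicate 1, 4 of 7 were called (42.7% of all genes), but not the same ones. Sox2 (-2.17), Tdh (-1.80) and Nanog (-1.25, adjusted p = 0.00121) stayed lower, Gdf3 lost its call (-0.61, adjusted p = 0.0612), and Utf1 turned higher (0.77, adjusted p = 0.00824). The 4 arrays alone gave 2 calls, Sox2 and Tdh (18.4% of all genes). E13.5 and cultured cells share no slide, so slide and group cannot be told apart in this and the next comparisons.

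Nanog and Sox2 were lower at E13.5 than in either group of cells differentiated in culture. E13.5 is set against day 7 and day 16 here, comparisons that share the E13.5 arrays with the one before. Against day 7, Nanog fell by 3.20 ± 0.49, Sox2 by 2.08 ± 0.26, Gdf3 by 1.72 ± 0.44 and Tdh by 1.63 ± 0.33 on the log2 scale, so 4 of 7 were called where 43.2% of all genes were. Without E13.5 replicate 1, these 4 differed by -2.11, -1.79, -0.77 and -1.35 and were called (40.2% of all genes), and on the 4 arrays alone Sox2 and Tdh were called (20.6% of all genes). Against day 16, Nanog fell by 3.32 ± 0.49 and Sox2 by 2.07 ± 0.26, 2 of 7 where 42.5% of all genes were called, or 1 of 7, Sox2, on the 4 arrays alone (17.2%). Nanog was not called on the arrays compared alone (adjusted p = 0.118 against ES cells, 0.0675 against day 7 and 0.0754 against day 16).

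The mean levels of Tdh and Utf1 at E13.5 were not below those of day 16. Tdh differed by 0.86 ± 0.33 (adjusted p = 0.0566) and Utf1 by 0.68 ± 0.48 (adjusted p = 0.281). Without E13.5 replicate 1, Utf1 (1.74, adjusted p = 7.38e-05) and Tdh (1.14, adjusted p = 0.0372) were called higher, 4 of 7 in all with Nanog (-2.23) and Sox2 (-1.79), against 43.1% of all genes. The median over all genes was 0.27 against day 7 and 0.18 against day 16. On the dimmer Sall4 probe E13.5 was higher than day 7 by 0.77 ± 0.27 (adjusted p = 0.0402 over 28128 probes), while the brighter probe differed by -0.01 ± 0.34.

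Markers of other cells moved in these comparisons. Against ES cells 11 of 13 fibroblast markers were lower at E13.5 and none higher, their log2 sum being 0.81 to 1.03 at E13.5, and Col5a2 and Fbn1 were not well above background. Of 8 macrophage markers 5 were higher and 1 lower at E13.5 than at day 7, and likewise against day 16. Their log2 sums were -0.42 to 0.14 at E13.5, 0.29 to 0.39 at day 7 and -0.18 to -0.10 at day 16. Of these 8 markers, 6 were dim on both day 7 arrays and 5 on both day 16 arrays. C1qc and Adgre1, called higher at E13.5 in both comparisons, were among them, so these calls rest on levels near background. Marker counts are to be read against 44.8% of all genes called against ES cells, 43.2% against day 7 and 42.5% against day 16. What part the marker genes had in the core genes' values was not tested.

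Targets of Pou5f1 and Sox2 were mostly lower at E13.5. Of 19, 13 were lower and none higher than in Dazl-GFP-positive ES cells, with a median of -2.69 against 0.05 for all genes. The differences were -8.64 ± 0.33 for Spp1, -6.30 ± 0.16 for Tbx3 and -2.81 ± 0.21 for Klf2. Tdgf1, the Nodal co-receptor, fell by 5.40 ± 0.86. The counts of the other lists are to be read against the 44.8% of all genes called. Of 24 chromatin partners 11 were lower and 3 higher, with the orphan receptor Nr0b1 (-5.49 ± 0.86) at one end and Mta1, a subunit of the NuRD complex (0.92 ± 0.15), at the other. Of 17 relatives 5 were lower and 3 higher, among them Pou2f1, the broadly expressed POU factor (1.32 ± 0.16). In Nodal and Gdf signalling 3 were lower and 2 higher, and of 16 one-carbon enzymes 8 were lower and none higher, Mthfd1l by 2.43 ± 0.27 on the log2 scale.

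All 7 core genes were lower in juvenile testis than at E13.5, in a comparison within 1 slide in which 34.8% of all genes were called and 18.9% were called lower. Sox2 was at least 194-fold lower, Gdf3 at least 66.1-fold and Nanog at least 62.3-fold, bounds because the juvenile arrays were not well above background. Computed from each E13.5 array alone, replicate 1 and then replicate 2, the bounds were 159 and 237 for Sox2, 34.3 and 127 for Gdf3, and 29.3 and 132 for Nanog. The difference was -4.80 ± 0.62 for Pou5f1 (adjusted p = 0.000160), -4.68 ± 0.33 for Tdh (adjusted p = 2.34e-06) and -4.40 ± 0.48 for Utf1 (adjusted p = 4.33e-05). These genes stayed well above background on both juvenile arrays.

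Sall4 fell least, by 1.13 ± 0.34 (adjusted p = 0.0218), and its call was the least stable. It was -0.48 (adjusted p = 0.153) without juvenile replicate 1 and -0.85 (adjusted p = 0.126) without E13.5 replicate 2. The dimmer probe differed by -0.59 ± 0.27 (adjusted p = 0.116 over 28128 probes). Without E13.5 replicate 1 all 7 were called, 40.3% of all genes being called, with Pou5f1 at -5.36, Tdh at -4.96, Utf1 at -5.46 and Sall4 at -1.41. On the 4 arrays alone, Sox2, Nanog, Gdf3 and Tdh were called, where 1.92% of all genes were.

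The juvenile arrays differed from each other most in Pou5f1, by 2.66, then in Sall4 and Tdh, by 1.31 and 1.24, all higher on replicate 2. Nanos2, on that stage a gene of spermatogonial stem cells, was at -4.07 and -1.59 on replicates 1 and 2, and Stra8 at 7.75 and 7.06. All 10 Sertoli markers were well above background in juvenile testis, 6 of 10 were higher than at E13.5, and their log2 sum was 3.81 to 5.74 against 0.56 to 3.30. Of 13 fibroblast markers 6 were higher and none lower, with sums of 2.96 to 3.20 against 0.81 to 1.03. Of 8 macrophage markers 3 were lower and none higher, with sums of -0.95 to -0.79 against -0.42 to 0.14. The marker counts are to be read against the 34.8% of all genes called between juvenile testis and E13.5. The part of these markers in the core genes' values was not tested.

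Among the listed genes, Pou5f1 and Sox2 targets had the most calls, most of them lower. Of all genes, 34.8% were called between juvenile testis and E13.5, and the list counts are to be read against that share. Of the 19 targets 12 were lower and 2 higher in juvenile testis, with a median of -2.56 against -0.08 for all genes: Esrrb, an orphan nuclear receptor, fell by 5.10 ± 0.31 and Dppa2 by 3.51 ± 0.22. Tbx3 (1.68 ± 0.16) and Klf4 (1.66 ± 0.24) rose. Of 24 chromatin partners 9 fell and 1 rose, with a median of -0.46. Of the relatives, 6 of 17 rose and 3 fell, with Sox3 (2.79 ± 0.44) and Pou3f1 (2.03 ± 0.34) higher and Sall3 (-2.28 ± 0.59) lower. In Nodal and Gdf signalling 3 of 17 rose and 4 fell, with the convertase Pcsk6 down by 3.21 ± 0.39 and the ligand Nodal by 3.65 ± 1.01. Of 16 one-carbon enzymes 3 fell and 2 rose, Gldc, of the glycine cleavage system, by 3.89 ± 0.38 downward and Phgdh, of serine synthesis, by 2.51 ± 0.36 upward.

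**Figure D3:**
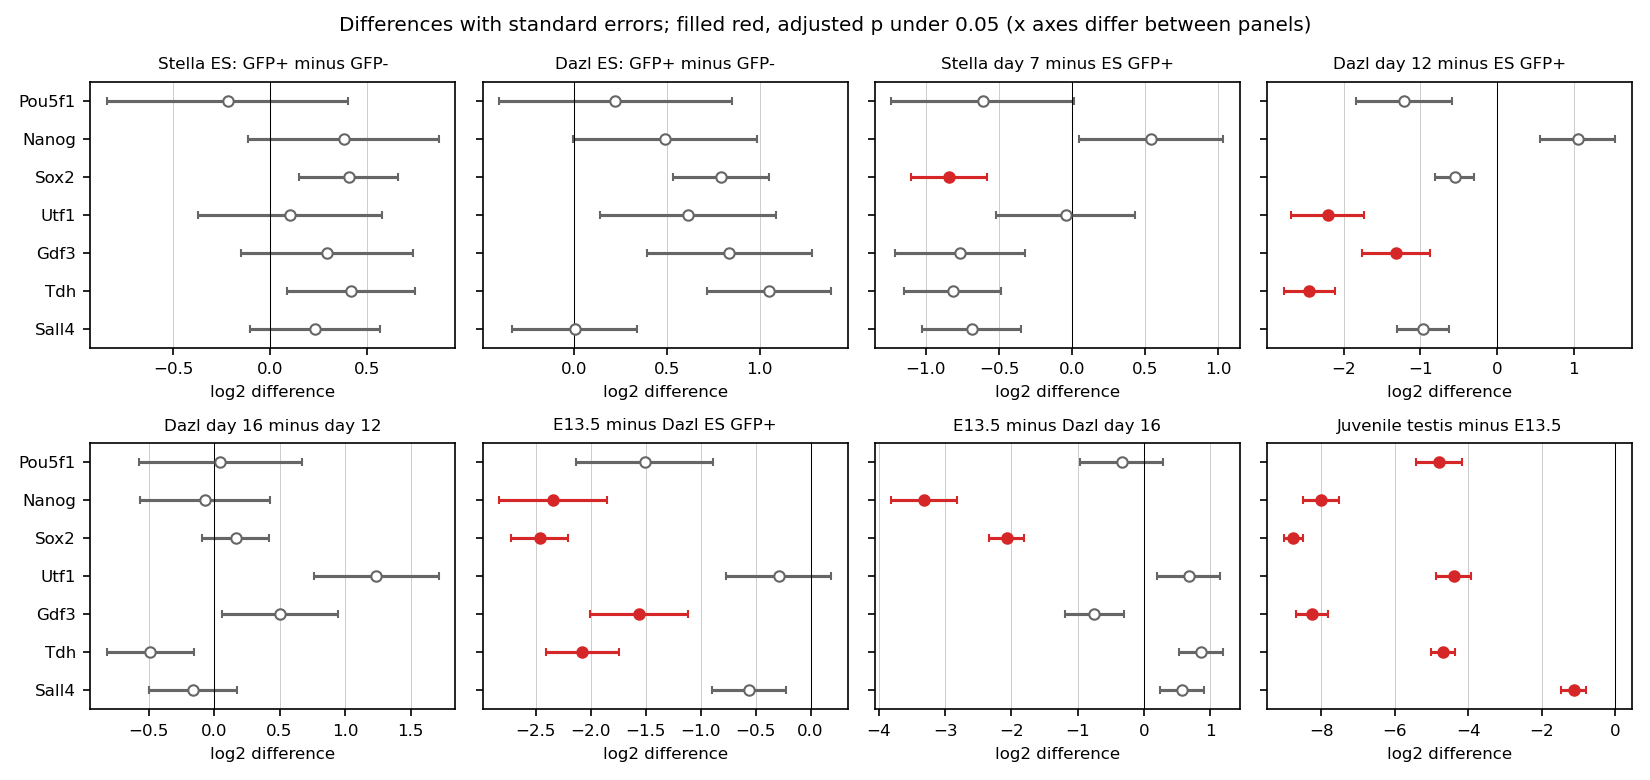
Log2 differences of the 7 core genes in 8 comparisons, with standard errors from limma (2 arrays per group); filled red points passed an adjusted p of 0.05, open points did not, and each panel has its own axis. Sox2 alone is called at day 7, Tdh, Utf1 and Gdf3 at day 12, and all 7 are called lower in juvenile testis, where Nanog, Sox2 and Gdf3 are dim and their differences are not bounds.

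**Figure D4:**
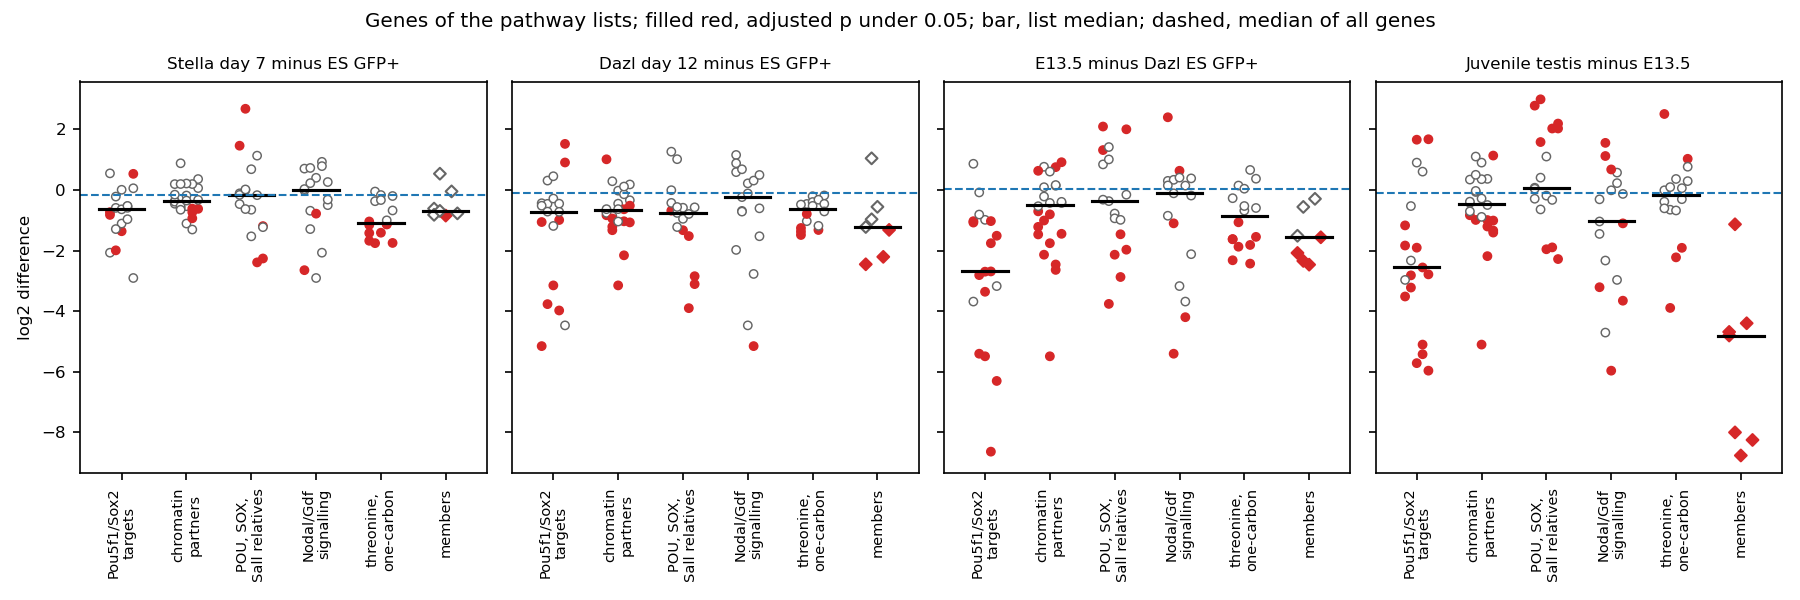
Log2 differences of the genes on 5 pathway lists and of the 7 core genes (diamonds) in 4 comparisons; red, adjusted p under 0.05 (limma); black bars, list medians; dashed line, median of all genes. The Pou5f1 and Sox2 targets lie lowest of the lists at E13.5 (median -2.69), and the core genes lie lower still in juvenile testis.

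How alike the core genes were across the 9 groups depended on the juvenile testis. Over the 9 group means, which share arrays and slides, Pearson's r between pairs of core genes ran from 0.60 (Nanog and Sall4) to 0.99 (Sox2 and Gdf3). Without the juvenile testis, over 8 groups, Pou5f1 and Tdh kept an r of 0.89 and Tdh and Sall4 one of 0.89. Nanog dropped to 0.17 with Pou5f1, -0.26 with Utf1 and -0.30 with Sall4. Its closest core gene was then Sox2, at 0.75.

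The genes most like each member, by Pearson's r over the 9 group means among 3139 candidate genes, were as follows, with r over 8 groups without the juvenile testis. Klf5 led for Pou5f1 (0.990, then 0.970), followed by Comtd1 and Gldc. For Sox2 the closest were Zfp2 (0.992, then 0.836), Dppa5a and Ifitm7, and for Nanog Map2k6 (0.994, then 0.926), Sh3tc1 and Ooep. Sall4 was most like Olig1 (0.983, then 0.972), Srm and Fermt1. Utf1 was closest to Smarcad1 (0.982, then 0.943), Tex21 and Cbs, Gdf3 to Ifitm7 (0.992, then 0.900), Igbp1 and Comtd1, and Tdh to Klf5 (0.982, then 0.952), Etv5 and Fuom. No core gene was among the 3 closest to another.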

How the data were processed

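Total RNA of 18 samples (9 groups of 2) was labelled with Cy3 by the submitters, per the labels' protocols. Per the file headers, Agilent's Feature Extraction (9.1.3.1) read the spots, and the deposited background-subtracted signals are linear intensity values, not scaled between arrays. The authors also deposited a table of group means, scaled intensity by the authors, used here only as an alternative, after values under 0.1 were set to 0.1. Here spots of a probe were averaged, controls and 172 probes with outlier marks were left out, and log2 levels were taken from the deposited intensity minus the log2 75th percentile of each array.

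Probes well above background on both arrays of at least 1 group were kept (28128), and the probe with the highest mean stood for its gene (18889 genes, 15459 of them named). Names came from RefSeq by accession for 22846 probes and by symbol for 9721, and 8435 kept the name in the files. One limma model (version 3.58.1, R 4.3.3) held all 9 groups, with 9 residual degrees of freedom, and moderated two-sided tests were adjusted by Benjamini-Hochberg over all genes. A gene that was dim on both arrays of its lower group has a bound: the higher group's mean against the mean, over the lower group's arrays, of whichever was larger, the gene's own level or the array's lowest level well above background. The fit was tested on simulated data. Figures were drawn with matplotlib 3.10.9.

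The members and lists were chosen with earlier results of these data known. Named genes are the 7 members, the panel Dppa3, Dazl, Ddx4 and Kit, the 3 genes most like each member (among genes with an SD of group means of at least 1 that passed the background limit in both replicates of 3 or more groups), and up to 3 called genes per list, comparison and direction, by smallest p. Stra8, Rec8, Nanos2, Ddx3y and Eif2s3y were named after their values were seen. 1 gene of a pathway list is counted but not reported by name here. The 5 pathway lists and 10 marker lists are described by counts and medians. Alternatives were quantile normalization, normexp with an offset of 50, floored low signals, no filter or a strict filter on dim probes, the mean over probes, slide or replicate number as a block, only the arrays compared, a log2 difference of at least 1, each array left out, and the authors' group means. Leaving out an array leaves 1 array in its group, so the error then comes from the other groups. Slide as a random block at day 7 and the test of day 7 against day 12 were added after the data were seen.

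Replicate numbers did not pair the samples over all groups: the correlation of deviations ran from -0.14 to 0.56 over 36 pairs of groups, with a median of -0.02. Same-numbered GFP-positive and GFP-negative ES arrays of a line shared a slide, with correlations of 0.56 (Stella) and 0.41 (Dazl). The number of arrays limits the precision.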

Additional observations from a re-analysis of the deposited data

Results flagged for a closer look

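Among genes on the pathway lists, 3 given here changed differently at day 7 in the Stella-GFP line and at day 12 in the Dazl-GFP line, each against its GFP-positive ES cells, by a limma test of the difference itself that was added after the data were seen. Klf4 was -1.36 at day 7 and 0.46 at day 12, a difference of -1.82 ± 0.35 (adjusted p = 0.0158). Tbx3 was 0.54 and 1.52 (-0.99 ± 0.23, adjusted p = 0.0371), and Mthfd2 was -1.75 and -0.46 (-1.29 ± 0.28, adjusted p = 0.0294). Line, reporter and day cannot be told apart in these values. Groups of 2 arrays are too small for a test of single outlying samples.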

How the results depend on the processing

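Counts of core genes called (of 7), including all that moved by over 1.5 times, were as follows. At day 7 against ES cells the 1 call, Sox2, was lost (0) under quantile normalization, normexp, no filter and a log2 difference of at least 1. The first 2 settings called 3592 and 827 of 18889 genes, and no filter 3240 of 27603. The strict filter also gave 0, but did not test Sox2. Leaving out an array moved the count as described above. Fits of only the arrays compared gave 4 in the Dazl sort, 7 at day 12 against ES cells, 3 at day 16 against day 12, 2, 2 and 1 at E13.5 against ES cells, day 7 and day 16, 4 in juvenile testis against E13.5, and 2 for the difference between cultures. Normexp gave 5 for E13.5 against day 16, where it called 13791 of 18889 genes, and 1 for day 16 against day 12, where it called 6999. Quantile normalization gave 1 for the difference between cultures, Tdh, with 817 of 18889 genes called. The strict filter left out Sox2, Nanog and Gdf3, and gave 1, 1, 1 and 4 for the E13.5 and juvenile comparisons. It called 6474, 6211, 6229 and 5215 of 12458 genes in them. Leaving out an array gave 0 to 2 in the Dazl sort, 2 to 5 at day 12, 0 to 1 at day 16 against day 12, 3 to 6 and 3 to 5 at E13.5 against ES cells and day 7, 2 to 4 against day 16, 6 to 7 in juvenile testis and 0 to 2 for the difference between cultures. The replicate block gave the same counts as without it in all 11 comparisons: 0, 0, 0, 1, 3, 0, 4, 4, 2, 7 and 0. Slide as a block gave 2 at day 12, and slide as a random block 1 at day 7.

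Signs turned only for values without a call in the main fit. Under normexp, Utf1 was -0.088 and Sall4 -0.054 in the Stella sort, Pou5f1 -0.094 and Sall4 -0.23 in the Dazl sort, Utf1 0.22 at day 7, Pou5f1 -0.55 and Sox2 -0.42 at day 16 against day 12, and, at E13.5, Utf1 0.35 and Sall4 0.028 against ES cells, Sall4 0.14 against day 7 and Pou5f1 0.52 against day 16. Quantile normalization gave Sall4 -0.033 in the Dazl sort, Utf1 0.24 at day 7 and Nanog 0.018 at day 16 against day 12. The mean over probes gave Sall4 -0.060 in the Dazl sort and 0.38 at E13.5 against day 7. The authors' group means gave Pou5f1 -0.022 at day 16 against day 12 and Utf1 0.25 at E13.5 against ES cells. With an array left out, the range was -0.22 to 0.0025 for Nanog in the difference between sorts, -0.11 to 0.12 for Sall4 in the Dazl sort, -0.13 to 0.044 for Utf1 at day 7 and -0.12 to 0.22 for Pou5f1 at day 16 against day 12. At E13.5 it was -1.35 to 0.77 for Utf1 against ES cells, -1.69 to 0.43 for Utf1 and -0.30 to 0.27 for Sall4 against day 7, and -0.89 to 0.21 for Pou5f1, -1.69 to 0.20 for Gdf3 and -0.38 to 1.74 for Utf1 against day 16. The cause was not tested. Of 1192 single values under an alternative, 1096 kept their direction and side of the threshold, 30 turned sign, 28 lost a call and 38 gained one. Utf1 and Tdh at day 12, Sox2 and Tdh at E13.5 against ES cells and day 7, Sox2 against day 16, and Nanog, Sox2, Gdf3 and Tdh in juvenile testis kept their calls wherever they could be fitted. Signal over background limits Nanog, Sox2 and Gdf3 in juvenile testis.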
